A study of Mus musculus with 6 samples.

Results

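Serpina3n, a secreted inhibitor of serine proteases, stood at 30.1 ± 5.33 CPM (counts scaled to library size, with TMM scaling between libraries) in auditory nerves of Vcan knockout mice and at 3.06 ± 1.15 CPM in wildtype nerves (SD, n = 3 each). It belongs to the Serpina3 gene cluster, a run of neighbouring serpin genes on mouse chromosome 12. The 10 members described here (Serpina3n, Serpina3m, Serpina3g, Serpina3f, Serpina3h, Serpina3i, Serpina3k, Serpina3c, Serpina3b and Serpina3a) were taken by symbol from the 24062 gene symbols of a table of read counts, after Serpina3n had been seen to differ between the genotypes. The knockout and wildtype values of the members are therefore a description, and no test of a member is read as support for its difference.

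Serpins are proteins that present an exposed loop, the reactive centre loop, as bait. A protease that cuts the loop is trapped in a covalent complex with the serpin, so the sequence of the loop sets which proteases are inhibited. Humans have a lone SERPINA3 gene, which encodes the plasma protein alpha-1-antichymotrypsin, whereas the mouse locus was copied many times, with loops that differ far more than the rest of the proteins. In the nervous system Serpina3n is best known as a transcript raised in reactive astrocytes and in oligodendrocytes near damage, and its protein inhibits granzyme B, cathepsin G and leukocyte elastase.

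The samples were auditory nerves microdissected from cochleae, with RNA of both cochleae of 1 mouse pooled into 1 library. There were 3 libraries from Vcan knockout mice and 3 from wildtype mice, all from young adults labelled C57BL/6, with the wildtype animals described as C57BL/6J in the series text. Vcan encodes versican, a large proteoglycan of the extracellular matrix. Which exons of Vcan were altered, in which cells, on which parental strain the allele was made and whether the animals were littermates are not in the labels.

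Library totals lay between 74530860 and 92513887 counts. Vcan had 413, 249 and 248 counts in the knockout libraries, against 697, 864 and 626 counts in the wildtype libraries, or 3.67 ± 1.54 CPM in knockout and 8.43 ± 1.15 CPM in wildtype nerves (SD, n = 3 each). Its groups did not overlap, but its log2 fold change of -1.20 (SE 0.32) was not called across all genes (edgeR quasi-likelihood test, Benjamini-Hochberg adjusted p = 0.558). Markers of the labelled tissue were present in every library. Summed neuron markers reached 8531 to 9630 CPM in knockout and 5310 to 10625 CPM in wildtype libraries, and summed Schwann cell markers 8205 to 11003 CPM in knockout and 7738 to 13586 CPM in wildtype libraries. Wildtype replicate 3 was the library least like the others. Not every other library stood nearest to its own genotype. By Pearson correlation of log2 CPM, knockout replicate 1 was nearer to wildtype replicate 1 (r = 0.977) than to knockout replicates 2 (0.961) and 3 (0.962). Knockout replicates 2 and 3 were nearest to each other (0.985), as were wildtype replicates 1 and 2 (0.983). In bulk tissue, fewer cells of a type and less RNA per cell cannot be told apart.

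The part of each coding sequence that matters most for what a serpin does is the loop. It is shown here for the 4 members with enough counts to be tested. In the loop stretch Serpina3m, Serpina3g and Serpina3c were less like Serpina3n than over the rest of their aligned coding bases. The lines that follow give the coding strand, 5′ to 3′, of the stretch that encodes the loop region in the GENCODE transcripts of GRCm38 (mm10), with capitals at bases that differ from Serpina3n in the alignment. The stretch lies in the last of 5 exons in each of the 4 genes, at chr12:104413442-104413540 (plus strand) for Serpina3n, chr12:104393763-104393861 (plus strand) for Serpina3m, chr12:104241066-104241164 (plus strand) for Serpina3g and chr12:104147304-104147393 (minus strand) for Serpina3c.
Serpina3n: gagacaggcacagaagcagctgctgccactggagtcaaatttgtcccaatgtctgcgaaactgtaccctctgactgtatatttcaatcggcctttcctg
Serpina3m: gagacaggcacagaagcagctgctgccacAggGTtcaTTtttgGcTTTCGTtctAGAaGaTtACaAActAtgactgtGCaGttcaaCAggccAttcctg
Serpina3g: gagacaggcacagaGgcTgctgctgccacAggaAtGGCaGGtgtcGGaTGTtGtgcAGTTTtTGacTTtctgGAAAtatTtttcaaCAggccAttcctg
Serpina3c: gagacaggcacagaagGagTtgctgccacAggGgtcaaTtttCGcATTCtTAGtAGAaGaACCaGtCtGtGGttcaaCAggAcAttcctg

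The capitals cluster in the middle of the stretch, while both ends are nearly shared. Serpina3m differed from Serpina3n at 28 of 99 bases and 11 of 33 residues. Serpina3g, known in mouse as Spi2A and as an inhibitor of lysosomal cathepsins inside cells, differed at 32 of 99 bases and 13 of 33 residues. Serpina3c, with a stretch of 90 bases, differed at 13 of 30 residues. Identity to Serpina3n in this stretch was 71.7% for Serpina3m, 67.7% for Serpina3g and 66.7% for Serpina3c, against 86.3%, 87.3% and 86.9% over the rest of their aligned coding bases. Coding sequences here are the longest open reading frames found in the transcripts. That of Serpina3g is short, at 744 bases, against 1254 bases for Serpina3n and for Serpina3m. Its identity to Serpina3n therefore rests on 648 aligned bases, the loop stretch included.

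**Figure D1:**
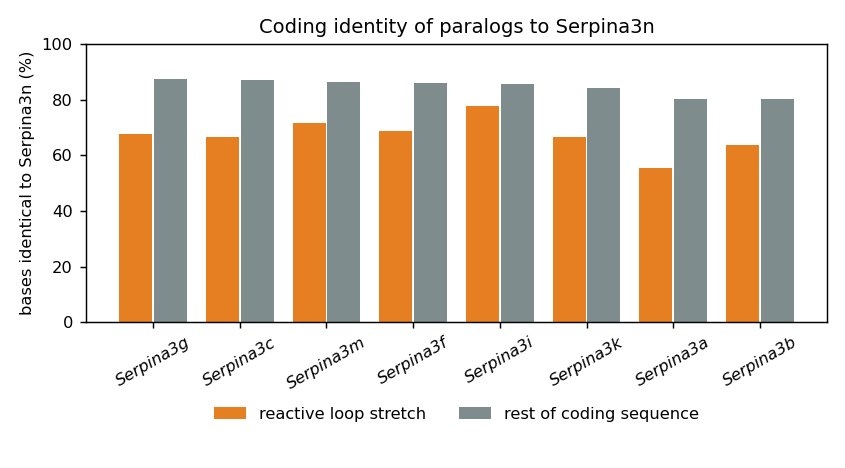
Identity of each member to Serpina3n in percent of aligned bases, for the stretch that encodes the reactive centre loop region and for the rest of the coding sequence. In every member compared the loop stretch lies below the rest, at 71.7% against 86.3% for Serpina3m.

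The members are also alike enough for their reads to be confused, which bears on every low value given here. Over the whole coding sequence Serpina3m matched Serpina3n at 85.2% of bases and 74.9% of residues. Serpina3c matched Serpina3n at 85.5% of bases and 75.9% of residues. Of all 50-base stretches of the Serpina3n transcript, 5.91% occur letter for letter in another member, and 19.1% of those of Serpina3m do. Most of what Serpina3m shares is with Serpina3k (257 of its 1610 stretches), and 18 stretches (1.12%) are shared with Serpina3n. Neither the read length nor the handling of reads with several matches is stated in the labels.

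Serpina3n (gene ID 20716, chr12:104406646-104414334 in GRCm38) held 2027, 3343 and 2351 counts in the knockout libraries, against 202, 395 and 203 counts in the wildtype libraries. On the scaled level this was 26.7, 36.2 and 27.3 CPM in knockout nerves and 2.42, 4.40 and 2.37 CPM in wildtype nerves. All knockout libraries lay above all wildtype libraries, and the lowest knockout library was 6.08 times the highest wildtype library. Within a group the libraries varied little beside that gap: the highest was 1.36 times the lowest in knockout and 1.85 times in wildtype. The log2 fold change was 3.29 (SE 0.31), a 9.80-fold difference, and ranked 27 among 16722 genes tested when ordered from the highest.

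Of the 10 members, 4 had enough counts to be tested (Serpina3n, Serpina3m, Serpina3g and Serpina3c), and 1 of them, Serpina3n, was called at an adjusted p under 0.05 by edgeR's quasi-likelihood test with Benjamini-Hochberg adjustment. Over all genes 23 were called, 0.138% of those tested, of which 11 (0.0658%) were higher and 12 (0.0718%) lower in knockout nerves. DESeq2 called Serpina3n and Serpina3m, where it called 1.39% of the genes it tested. In CPM the knockout and wildtype groups did not overlap for Serpina3n and for Serpina3m, where 10.3% of all tested genes did not overlap, 5.42% higher and 4.93% lower in knockout nerves. Because the members were chosen on this comparison, nothing is read from these counts. The call of Serpina3n by edgeR depended on the full set of libraries: it was lost without any 1 of the knockout replicates and without wildtype replicate 1 or 3, with log2 fold changes between 3.13 and 3.37, and was kept without wildtype replicate 2 at 3.65.

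**Figure D2:**
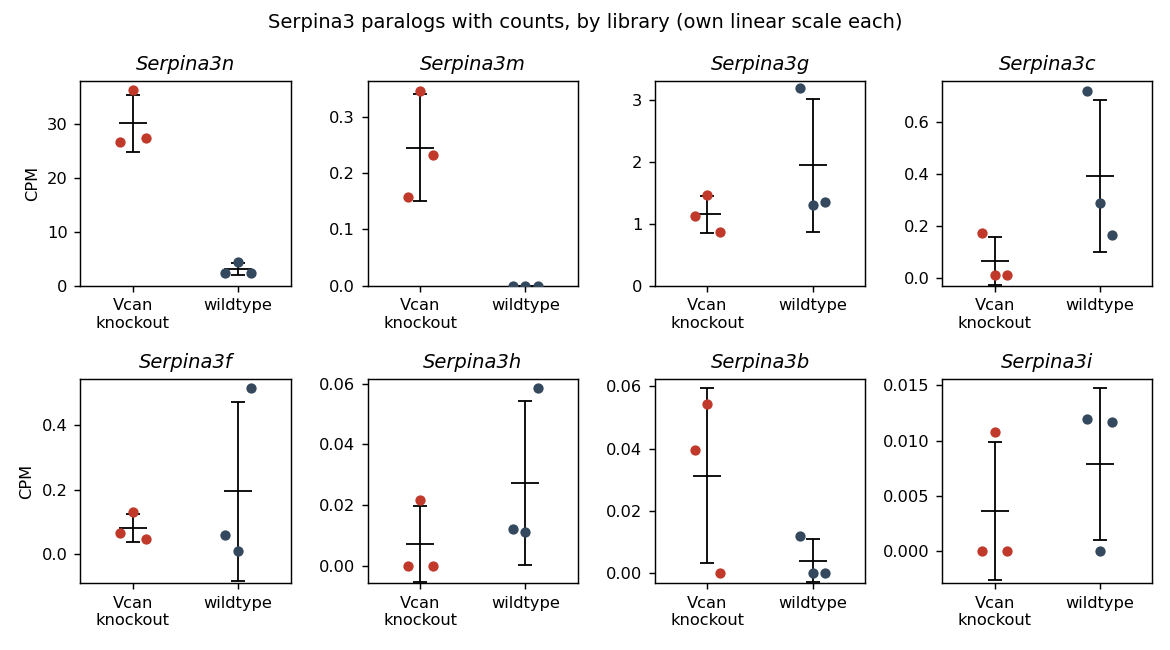
Level of each member in CPM, as points for the 3 Vcan knockout and 3 wildtype libraries, with group means and SD. Serpina3n lies between 26.7 and 36.2 CPM in the knockout libraries and between 2.37 and 4.40 CPM in the wildtype libraries, and every other member lies below 3.3 CPM in every library.

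Serpina3m (gene ID 20717), the next gene on the lower-coordinate side of Serpina3n in the table, was also higher in knockout nerves. It held 12, 32 and 20 counts in the knockout libraries and 0 counts in each wildtype library. This was 0.158, 0.347 and 0.232 CPM in knockout nerves, against a limit of 0.0334 to 0.0360 CPM per library that 0 counts allow in wildtype nerves (3 counts). Set against 3 counts over the wildtype group, Serpina3m was at least 21.7-fold higher in knockout nerves. It passed the filter on low counts only through the knockout libraries, so among tested genes it had to differ.

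Serpina3m was low throughout: there were 0.592, 0.957 and 0.851 Serpina3m counts per 100 Serpina3n counts in the knockout libraries. In wildtype libraries 3 counts over the group would be 0.375 per 100 Serpina3n counts. Whether Serpina3m counts come from Serpina3m transcripts or from Serpina3n reads placed on the shared stretches was not tested. At 75 bases and at 100 bases the 2 transcripts share 0 stretches.

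Serpina3g (gene ID 20715) was the most abundant member after Serpina3n, and it was not higher in knockout nerves. It had 86, 135 and 75 counts in knockout libraries, against 266, 117 and 115 counts in wildtype libraries. This was 1.13, 1.46 and 0.870 CPM in knockout and 3.19, 1.30 and 1.35 CPM in wildtype nerves. The groups overlapped, with knockout replicate 2 above wildtype replicates 2 and 3, and the high wildtype value came from replicate 1 alone. The log2 fold change of -0.75 (SE 0.45) moved to -0.20 without wildtype replicate 1.

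Serpina3c (gene ID 16625) was scarce and was lower in most knockout libraries. It had 13, 1 and 1 counts in knockout libraries, against 60, 26 and 14 counts in wildtype libraries. This was 0.171, 0.0108 and 0.0116 CPM in knockout and 0.720, 0.289 and 0.164 CPM in wildtype nerves. Knockout replicate 1 lay just above wildtype replicate 3, so the groups overlapped. The log2 fold change was -2.62 (SE 1.11), and it was -4.96 without knockout replicate 1.

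The other members were at or near the limit of detection. Serpina3f (gene ID 238393) had 5, 12 and 4 counts in knockout and 5, 1 and 44 counts in wildtype libraries, so that most of its counts came from wildtype replicate 3. Serpina3b (gene ID 271047) had 3, 5 and 0 counts in knockout and 1, 0 and 0 counts in wildtype libraries. Serpina3h (gene ID 546546), annotated as a transcribed pseudogene, had 0, 2 and 0 counts in knockout and 1, 1 and 5 counts in wildtype libraries. Serpina3i (gene ID 628900) had 0, 1 and 0 counts in knockout and 1, 0 and 1 counts in wildtype libraries. These 4 members failed the filter on low counts and were not tested. Serpina3k (gene ID 20714), which encodes a serpin secreted by the liver, and Serpina3a (gene ID 74069) had 0 counts in all 6 libraries, which allows at most 0.00585 CPM over them together.

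Most of the RNA counted from the cluster was therefore Serpina3n in the knockout. Summed over the 10 members the cluster reached 28.3, 38.2 and 28.4 CPM in knockout and 6.43, 6.01 and 4.47 CPM in wildtype libraries, a difference of 2.49 (SE 0.22) in log2 CPM. The 9 members other than Serpina3n summed to 1.57, 2.04 and 1.16 CPM in knockout and 4.01, 1.61 and 2.09 CPM in wildtype libraries. Those sums overlapped, and their difference was -0.62 (SE 0.46) in log2 CPM.

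Serpina3n made up 94.5%, 94.7% and 95.9% of the cluster's counts in knockout libraries, against 37.7%, 73.1% and 53.1% in wildtype libraries. Serpina3g made up 4.01%, 3.82% and 3.06% in knockout and 49.6%, 21.7% and 30.1% in wildtype libraries. The wildtype makeup thus varied from mouse to mouse, and in wildtype replicate 1 Serpina3g had more counts than Serpina3n. Per kilobase of exon, the mean level in RPKM was 14.6 ± 2.58 for Serpina3n, 0.549 ± 0.141 for Serpina3g and 0.143 ± 0.0552 for Serpina3m in knockout nerves (SD, n = 3). In wildtype nerves the mean RPKM was 1.48 ± 0.558 for Serpina3n and 0.925 ± 0.513 for Serpina3g (SD, n = 3). The mean RPKM of Serpina3n was thus 26.5 times that of Serpina3g in knockout nerves and 1.61 times in wildtype nerves, where the spreads of both genes overlapped.

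**Figure D3:**
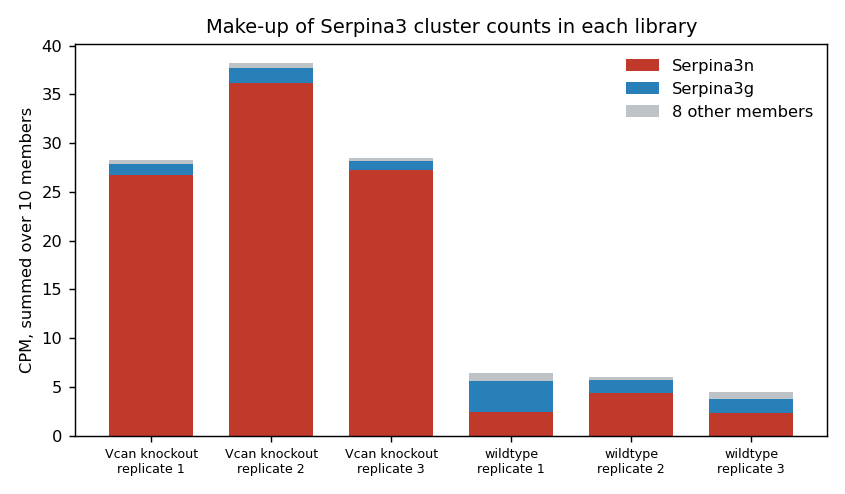
Makeup of the cluster's counts in each library, with the Vcan knockout libraries left of the wildtype libraries. Serpina3n fills 94.5% to 95.9% of the counts in the knockout libraries and 37.7% to 73.1% in the wildtype libraries.

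In the authors' deposited table the log2 fold change of knockout over wildtype was 2.49 for Serpina3n (adjusted p 3.66e-23) and 0.83 for Serpina3m (adjusted p 0.0325). In the authors' deposited table Serpina3g and Serpina3c had log2 fold changes of -0.44 and -0.43, and neither passed the threshold. The signs were those of the fold changes given above. The authors' values are on a scale of their own, so the sizes are not compared.

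The members span 301.611 kb, from position 104112724 to position 104414334 of chromosome 12 in GRCm38. Genes within 1 Mb of either end were taken to see whether the surroundings moved too. Of 40 such genes in the table, 18 were tested and 0 were called by edgeR (0.138% of all genes). None of the 18 was called by DESeq2 (1.39% of the genes it tested), and none had groups that did not overlap (10.3% of all genes). At such shares few or none would be expected among 18 genes, so these counts cannot show whether the surroundings moved. The log2 fold changes of the 18 had a median of -0.16, against -0.0061 over all genes, with 6 above and 12 below 0. They lay between -2.02 (Gsc, SE 2.08) and 0.45 (Unc79, SE 0.39).

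The nearest tested gene beyond Serpina3n was Gsc, a homeobox gene 56.875 kb away, at 0.416 ± 0.70 CPM in knockout and 1.71 ± 2.82 CPM in wildtype nerves (SD, n = 3 each). The nearest tested gene at the other end was Serpina9, 99.072 kb away, at 5.72 ± 5.41 CPM in knockout and 4.44 ± 3.45 CPM in wildtype nerves (SD, n = 3 each). In both genes the SD within a group came close to the mean or passed it.

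Other clade A serpins within the same 1 Mb had counts too low for the edgeR test, and those named here were picked after their values were seen. Serpina1b, which in mouse encodes a form of alpha-1-antitrypsin, had 103, 8 and 26 counts in knockout and 4, 2 and 0 counts in wildtype libraries, and DESeq2 called it at an adjusted p of 0.0218. Serpina1c had 26, 0 and 6 counts in knockout and 0 counts in each wildtype library. Serpina11 had 16, 7 and 1 counts in knockout and 0, 1 and 0 counts in wildtype libraries. Serpina1a had 18, 0 and 1 counts in knockout and 0 counts in each wildtype library. Serpina3j, which lies inside the cluster but is not among the members described, had 1, 4 and 0 counts in knockout and 0 counts in each wildtype library. Others went the opposite way: Serpina10 had 7 counts over the knockout and 18 over the wildtype libraries, Serpina1e 2 over the knockout and 7 over the wildtype, and Serpina1f 0 over the knockout and 5 over the wildtype. The high library of Serpina1a, Serpina1b, Serpina1c and Serpina11 was knockout replicate 1. Serpina3n and Serpina3m were highest in knockout replicate 2, as was Serpina3j at 4 counts.

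**Figure D4:**
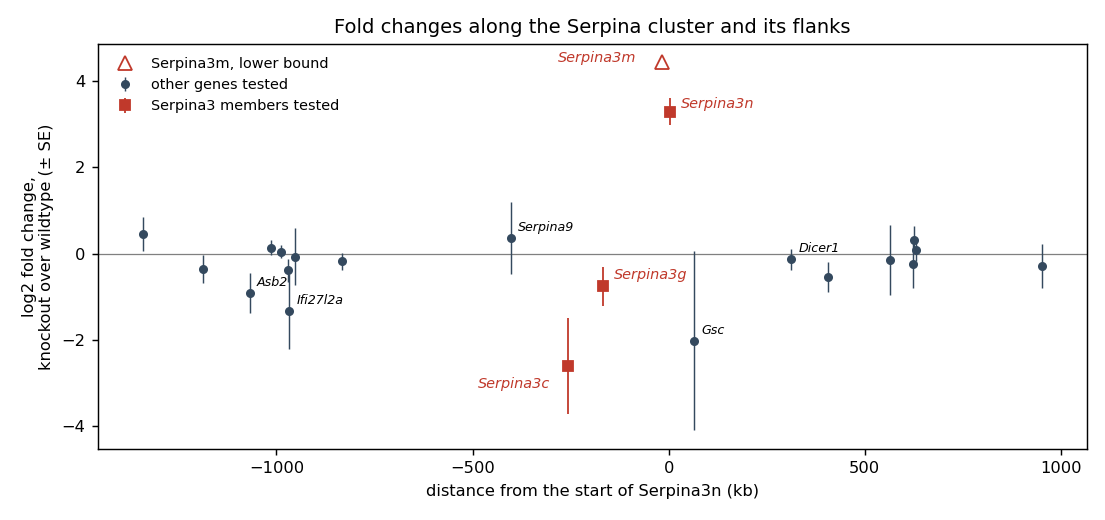
Log2 fold change of knockout over wildtype for the tested genes in and around the cluster, against distance along the chromosome in kb, with bars for the SE and an open triangle for the lower bound of Serpina3m. Serpina3n stands at 3.29 and the 18 tested neighbours within 1 Mb lie between -2.02 and 0.45.

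The start of Serpina3n was compared with those of its relatives because the members do not share one pattern of levels. RefSeq windows of GRCm38.p6, running from 250 bases before to 50 after each annotated start, were found for 7 of the 10 members, all but Serpina3m, Serpina3k and Serpina3h. The window of Serpina3n was closest to that of Serpina3c, with 275 of 294 aligned bases identical (93.5%), and 39.0% to 70.8% identical to the rest. The parts upstream of the earliest annotated start are shown here 5′ to 3′ for this closest pair, at chr12:104406458-104406645 (plus strand) for Serpina3n and chr12:104153930-104154122 (minus strand) for Serpina3c. Capitals mark bases of Serpina3c that differ from Serpina3n or have no partner in it.
Serpina3n: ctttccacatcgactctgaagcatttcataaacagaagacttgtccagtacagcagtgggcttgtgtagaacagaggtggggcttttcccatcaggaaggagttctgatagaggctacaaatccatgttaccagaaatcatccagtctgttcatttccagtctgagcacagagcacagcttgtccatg
Serpina3c: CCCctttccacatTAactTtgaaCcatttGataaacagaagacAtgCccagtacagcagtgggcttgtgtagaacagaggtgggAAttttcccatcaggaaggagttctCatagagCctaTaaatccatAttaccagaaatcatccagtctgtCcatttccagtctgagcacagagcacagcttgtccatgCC

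These 2 promoters differ at 14 of 188 aligned bases. Serpina3n was higher in every knockout library than in any wildtype library. Serpina3c was lower in 2 knockout libraries, at 1 count each, than in any wildtype library. Its knockout replicate 1 (0.171 CPM) lay above wildtype replicate 3 (0.164 CPM). Whether the promoters account for these levels was not tested. The windows are those of the reference genome, and the sequence in the knockout mice is not known. A STAT gamma-activated site (TTCNNNGAA, which reads the same on both strands) occurred in the windows of Serpina3f, Serpina3g and Serpina3i and not in those of Serpina3n, Serpina3c, Serpina3b and Serpina3a; it occurs in 8.3% of 32851 RefSeq windows. The half-site of the glucocorticoid receptor (AGAACA, either strand) occurred in 6 of the 7 windows, all but Serpina3g, and in 19% of all windows. A match here is a match of letters and does not show that a factor binds.

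Serpina3 genes are known targets of inflammatory, interferon and glucocorticoid signals, and Serpina3n is a common member of lists of reactive glia, so genes of such lists were set beside it, together with lists of other serpins and of proteases, 12 lists in all. The lists were chosen with earlier results of these data known, so no excess is read from their shares. The lists hold 157 distinct tested genes, of which 0 were called by edgeR (0.138% of all genes). Of these genes, 23 (14.6%) had an unadjusted edgeR p under 0.05, against 5.2% of all genes. DESeq2 called 3 of them (1.91%, against 1.39% of all genes), each lower in knockout nerves and named here because DESeq2 called it: Iigp1 and Irgm2, interferon-induced GTPases, and Per1, a clock gene induced by glucocorticoids. Irgm2 had 9.17 ± 1.40 CPM in knockout and 20.5 ± 2.13 CPM in wildtype nerves (SD, n = 3 each). In CPM the groups did not overlap for 23 of the 157 (14.6%, against 10.3% of all genes), with 59 log2 fold changes above and 98 below 0 and a median of -0.14.

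In the list of genes shared by reactive astrocytes, 4 of 12 had a log2 fold change above and 8 below 0, with a median of -0.36. Gfap, the filament protein of astrocytes, had 223 ± 69.5 CPM in knockout and 371 ± 138 CPM in wildtype nerves (SD, n = 3 each), and its groups overlapped. Vim, another filament protein of these cells, had 250 ± 9.75 CPM in knockout and 278 ± 21.4 CPM in wildtype nerves (SD, n = 3 each). Lcn2, an iron-siderophore binding protein of reactive astrocytes and neutrophils chosen here after its values were seen, had 5.94, 33.6 and 5.81 CPM in knockout and 1.39, 2.00 and 7.90 CPM in wildtype libraries. Its groups overlapped, and knockout replicate 2, which was also highest for Serpina3n, stood far above the rest. The median of the list was -0.03 without wildtype replicate 3. Genes tied to neuroinflammatory astrocytes had 2 of 11 above 0 and a median of -0.16, and those tied to ischaemic astrocytes had 7 of 12 above 0 and a median of 0.03. The median of the ischaemic list was -0.10 without knockout replicate 2, -0.04 without knockout replicate 3 and -0.14 without wildtype replicate 1.

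Of the genes that accompany Serpina3n in oligodendrocytes of diseased nervous tissue, 6 of 18 lay above and 12 below 0, with a median of -0.27 and of 0.02 without wildtype replicate 3. Trf, which encodes transferrin, had 2420 ± 442 CPM in knockout and 2205 ± 930 CPM in wildtype nerves (SD, n = 3 each). Astrocyte markers had log2 fold changes below 0 for 10 of 10 genes, with 0 called by edgeR, 1 called by DESeq2 (Aqp4, a water channel, 68.9 ± 17.0 CPM in knockout and 194 ± 80.2 CPM in wildtype nerves, SD, n = 3 each) and summed levels of 1314 to 1686 CPM in knockout and 1651 to 2214 CPM in wildtype libraries. These sums overlapped. Oligodendrocyte markers had log2 fold changes below 0 for 9 of 10 genes, with a median of -0.46 and 0 called by edgeR or DESeq2. That median was -0.16 without wildtype replicate 2. Their summed levels were 2293 to 3896 CPM in knockout and 2912 to 5952 CPM in wildtype libraries, which overlapped. The part of the glial makeup in the Serpina3n level was not tested.

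Genes of the interleukin-6 and STAT3 pathway, which drives acute phase serpins in liver, were split, with 12 of 22 above 0 and a median of 0.09. Il6st, the shared receptor subunit, had 254 ± 152 CPM in knockout and 309 ± 57.9 CPM in wildtype nerves (SD, n = 3 each). That median was -0.05 without knockout replicate 2. The acute phase list had 5 of 10 tested genes above 0 and a median of -0.24, which turned to 0.02 without knockout replicate 3, 0.14 without wildtype replicate 2 and 0.18 without wildtype replicate 3. Cp, which encodes the copper carrier ceruloplasmin, had 374 ± 48.5 CPM in knockout and 528 ± 227 CPM in wildtype nerves (SD, n = 3 each), where wildtype replicate 3 held 789 CPM and the others 393 and 401 CPM. The list of interleukin-1, TNF and NF-kB targets had 6 of 16 above 0 and a median of -0.11, which was 0.01 without wildtype replicate 3.

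Interferon gamma genes had 5 of 20 log2 fold changes above and 15 below 0, with a median of -0.16. Ifngr2, a subunit of the interferon gamma receptor, had 56.4 ± 5.56 CPM in knockout and 44.3 ± 10.1 CPM in wildtype nerves (SD, n = 3 each). Glucocorticoid-induced genes had 0 of 15 above 0 and a median of -0.76, which was -0.22 without wildtype replicate 3. In that library Fkbp5, a co-chaperone of the glucocorticoid receptor, stood at 325 CPM, against 31.7 and 35.6 CPM in the other wildtype libraries and 31.8, 22.2 and 15.8 CPM in the knockout libraries.

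**Figure D5:**
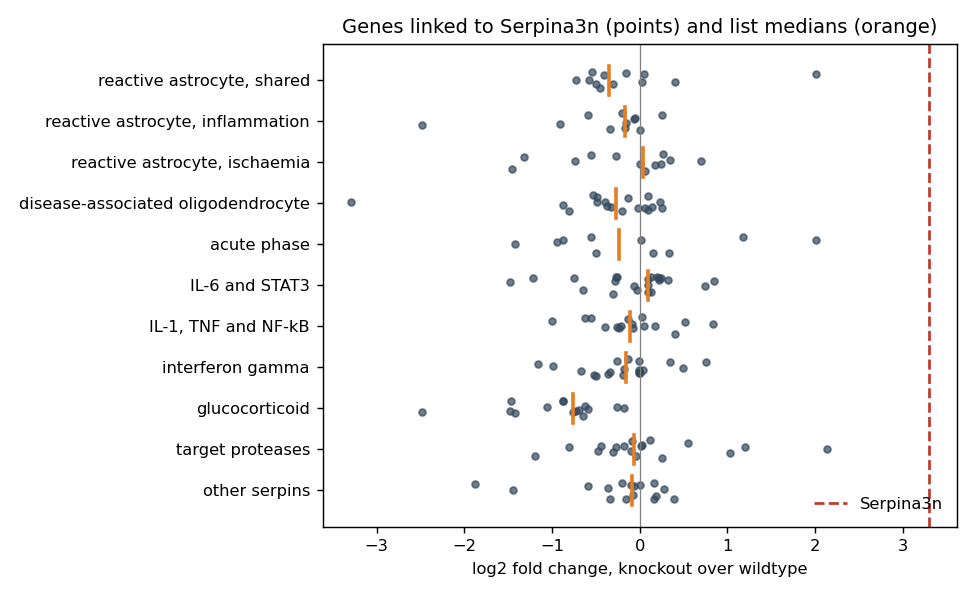
Log2 fold changes of knockout over wildtype for the tested genes of the lists of pathway genes, other serpins and proteases. Each gene is 1 point, the median is marked, and the value of Serpina3n is a dashed line at 3.29. Medians of the lists drawn lie between -0.76 and 0.09. The list of clade A serpins near the cluster, with 1 tested gene, is not drawn.

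Serpins of other clades and the proteases that Serpina3 proteins can meet were likewise without calls by edgeR. Among 16 other serpins 6 lay above and 10 below 0, with a median of -0.09. Serpine2, a thrombin inhibitor made by glia, had 309 ± 40.7 CPM in knockout and 355 ± 89.4 CPM in wildtype nerves (SD, n = 3 each). Among 18 proteases 8 lay above and 10 below 0, with a median of -0.06, which turned to 0.01 without knockout replicate 1 and to 0.12 without wildtype replicate 3. Ctsb, a lysosomal cathepsin, had 1353 ± 70.7 CPM in knockout and 1251 ± 19.8 CPM in wildtype nerves (SD, n = 3 each). The proteases that Serpina3n is best known to inhibit were scarce and are named after their values were seen: Ctsg, encoding cathepsin G, had 1, 35 and 23 counts in knockout and 11, 15 and 13 counts in wildtype libraries. Gzmb, encoding granzyme B, had 11, 19 and 7 counts in knockout and 29, 19 and 4 counts in wildtype libraries. Elane, encoding leukocyte elastase, had 2, 205 and 114 counts in knockout and 8, 20 and 42 counts in wildtype libraries. The log2 fold change of Elane was 2.14 (SE 1.25), and its groups overlapped, with knockout replicate 1 the lowest library.

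Markers of other cells that make Serpina3 proteins were summed per library. Neutrophil and T cell markers summed to 128, 146 and 75.4 CPM in knockout libraries, against 20.7, 26.4 and 56.1 CPM in wildtype libraries, with 9 of 11 log2 fold changes above 0 and 0 called by edgeR. Ltf, which encodes the neutrophil granule protein lactoferrin, made up nearly all of the sum in knockout replicate 1 and stood at 121, 63.2 and 9.26 CPM in knockout and 2.36, 2.73 and 12.5 CPM in wildtype libraries. Without Ltf, a sum added after its values were seen, the markers came to 6.93, 82.8 and 66.1 CPM in knockout and 18.3, 23.7 and 43.6 CPM in wildtype libraries, and the groups overlapped. S100a8, a neutrophil marker named after its values were seen, had 47, 1697 and 1271 counts in knockout and 338, 437 and 706 counts in wildtype libraries. Its lowest library was knockout replicate 1, where Ltf was highest. The part of these cells in the Serpina3n level was not tested beyond these values. Hepatocyte markers summed to 13.5 to 37.5 CPM in knockout and 16.5 to 26.8 CPM in wildtype libraries, mostly Ttr, which cells other than hepatocytes also express. Of the 4 tested markers of this list, 2 had log2 fold changes above and 2 below 0. The 2 above 0 were Ttr and Apoh. Ttr had 24.7 ± 11.9 CPM in knockout and 15.8 ± 4.47 CPM in wildtype nerves (SD, n = 3 each). Apoh had 50, 26 and 29 counts in knockout and 18, 38 and 26 counts in wildtype libraries. Serpina1a, which was not tested, had 18, 0 and 1 counts in knockout and 0 counts in each wildtype library. Alb, a hepatocyte transcript, had 0 counts in each knockout library and 0, 4 and 4 counts in the wildtype libraries. Apoa2, another hepatocyte marker and the one of this list that DESeq2 called, had 0 counts in each knockout library and 10, 35 and 16 counts in the wildtype libraries. Macrophage markers summed to 154 to 197 CPM in knockout and 216 to 230 CPM in wildtype libraries.

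The genes whose levels most resembled Serpina3n across the 6 libraries were found by Pearson correlation of log2 CPM over 13542 genes with a mean of at least 2 CPM. These values describe 6 libraries that fall into 2 groups, so any gene that differs between the groups scores high, and 150 genes reached 0.9. Pcdhb5, a clustered protocadherin, had r = 0.994, and Gbp2b (0.990), Eno1b (0.988) and Crym (0.985) were also among the highest. Gbp2b, which encodes a guanylate-binding protein, had 11.6 ± 1.98 CPM in knockout and 0.0113 ± 0.0111 CPM in wildtype nerves (SD, n = 3 each). Eno1b, a copy of the enolase gene Eno1, had 118 ± 26.6 CPM in knockout and 0.334 ± 0.081 CPM in wildtype nerves (SD, n = 3 each). With the group means taken out, the genes nearest to Serpina3n were BC005624 (0.998), Trmt6 (0.997), Gnpda1 (0.993), Dbndd2 (0.991) and Fastkd3 (0.990), and 100 genes reached 0.9. No gene is named in both lists.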

How the data were processed

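Auditory nerve libraries were prepared with a TruSeq RNA kit, per the labels' protocols. The submitters' processing notes name mm10, HTSeq and DESeq2. Strand, the aligner and versions are not stated there. The deposited table holds raw counts, and the authors' own mean signal, log2 fold changes, test score and p-values. The authors' log2 values and p-values are quoted only where named.

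Of 24067 rows, 5 symbols stood on 2 rows with identical counts and were joined. Genes were kept by filterByExpr (minimum count 10), scaled by TMM (factors 0.964 to 1.02) and tested in R 4.3.3 with edgeR 4.0.16 (robust quasi-likelihood F test, 2-sided, Benjamini-Hochberg adjustment over 16722 genes, threshold 0.05). DESeq2 1.42.0 was an alternative. The SE is the log2 fold change divided by the square root of F. Each library is 1 mouse. Limits at 0 are 3 counts and cover counting error only. The pipeline was tested on simulated data.

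Sequences came from GENCODE transcripts (GRCm38) and RefSeq windows (GRCm38.p6), aligned with MAFFT 7.526. Each coding sequence was taken as the longest open reading frame of the gene's protein-coding transcripts. The members, gene lists and markers were chosen with earlier results of these data known. Named from each list were at most 3 genes of highest level. Lcn2, Fkbp5, Ctsg, Gzmb, Elane, S100a8, Alb, Apoh, Serpina1a and genes that DESeq2 alone called were named after their values were seen.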

Additional observations from a re-analysis of the deposited data

How the results depend on the processing

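The alternatives were RLE size factors, library totals only, no filter on low counts, DESeq2, the replicate block and each library left out. Across them the log2 fold change of Serpina3n lay between 3.13 and 3.65, and that of the summed members between 2.33 and 2.60. For the sum the replicate block gave the main value of 2.49 unchanged, so it is no separate check of the sum. The log2 fold changes of Serpina3m (6.84 to 7.67, fitted against 0 counts and no bound), Serpina3g (-0.97 to -0.20) and Serpina3c (-4.96 to -1.83) kept their sign. Replicate numbers are those of the sample titles, and the headers of the count columns number the knockout samples otherwise. The title numbers do not pair the samples: deviations of same-numbered libraries correlated at 0.43, 0.22 and -0.15. With replicate number as a block, 3 genes were called in place of 23, and Serpina3n was not among them, at a log2 fold change of 3.34. Leaving out 1 library gave 3 to 14 calls, and DESeq2 gave 252, with 6 genes of the lists called in place of 0. Why the calls move was not tested, beyond the smaller number of libraries. Shared stretches of 75 and of 100 bases made up 1.31% and 0.0509% of the Serpina3n transcript, and 9.65% and 6.09% of that of Serpina3m, in place of 5.91% and 19.1% at 50 bases, with 0 stretches of 75 or 100 bases shared between Serpina3n and Serpina3m. The number of called members under each alternative, 0 to 2, was counted after seeing the data.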
